A study of Homo sapiens with 11 samples.

Results

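S100A2, S100A4, S100A6, S100A8, S100A9, S100A10, S100A11, S100A14, S100A16 and S100P are 10 members of the S100 family, chosen by gene symbol from the 28252 genes listed for RT4 cells and the 26237 promoters listed for BEAS-2B cells, and all 10 were found in both. RT4 is an epithelial line from a human bladder tumour, and BEAS-2B is a virally immortalized human lung epithelial line. RNA-Seq of RT4 cells covered untreated (UT) cells, cells kept in 100 μM NiCl2 for 6 weeks (Ni-E) and cells then kept without nickel for 2 weeks (Ni-W), with 2 libraries in each group. H3K4me3 ChIP-Seq of BEAS-2B cells covered UT cells, Ni-E cells with the same dose and time, and Ni-W cells, with 1 library each. The BEAS-2B Ni-W cells were a population grown from a colony of nickel-exposed cells, picked at random and kept without nickel for more than 6 months, so that clonal differences and the history of exposure cannot be told apart. The labels of both lines also mention 2 weeks without nickel. The samples included no RNA of BEAS-2B cells and no H3K4me3 of RT4 cells, so the RNA and the mark come from different lines. The ChIP input libraries were not used here.

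S100 proteins are small proteins with EF-hand motifs, through which most of them bind calcium, and they work mostly as dimers. On binding calcium, most of them open a hydrophobic face that docks onto other proteins, such as annexins, cytoskeletal proteins and p53, and some are released from cells, where they act on receptors such as RAGE (gene AGER) and TLR4. S100A8 and S100A9 form calprotectin, an antimicrobial complex abundant in neutrophils that withholds zinc, manganese and other transition metals, nickel among them, from microbes. H3K4me3, the trimethylation of lysine 4 of histone H3, marks the promoters of genes that are active or poised.

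Of these genes, 9 lie on chromosome 1, within 1.63 Mb of a cluster that holds 17 S100 genes, while S100P lies on chromosome 4 (RefSeq, GRCh38.p14). S100A10 and S100A11 sit at one end of this stretch, and S100A9, S100A8, S100A6, S100A4, S100A2, S100A16 and S100A14 follow. The promoters of 5 genes are shown, since they differ in CG content, in the mark and in RNA: S100A6 and S100A10, which carried H3K4me3 in BEAS-2B cells, S100A16, which also carried the mark and has few CG before this start, and S100A4 and S100P, whose promoters carried little of it. Each is the 250 bases before the RefSeq transcription start site (TSS) nearest to the 5′ end of the gene's canonical GENCODE transcript, read along the gene's strand, with CG and the run TATAAA in capitals. They are S100A6 at chr1:153535992-153536241 (minus strand), S100A10 at chr1:151993860-151994109 (minus), S100A16 at chr1:153613138-153613387 (minus), S100A4 at chr1:153545807-153546056 (minus) and S100P at chr4:6693628-6693877 (plus).
S100A6: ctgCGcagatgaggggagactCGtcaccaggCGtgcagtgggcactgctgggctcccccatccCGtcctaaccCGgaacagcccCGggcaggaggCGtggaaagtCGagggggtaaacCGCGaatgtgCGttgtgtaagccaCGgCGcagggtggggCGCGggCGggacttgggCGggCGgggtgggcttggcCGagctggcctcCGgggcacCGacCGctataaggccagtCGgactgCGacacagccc
S100A10: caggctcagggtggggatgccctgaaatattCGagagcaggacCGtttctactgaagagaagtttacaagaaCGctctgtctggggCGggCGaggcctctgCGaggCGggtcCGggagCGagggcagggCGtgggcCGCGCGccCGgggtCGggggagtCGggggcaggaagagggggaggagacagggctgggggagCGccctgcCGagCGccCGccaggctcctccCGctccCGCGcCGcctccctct
S100A16: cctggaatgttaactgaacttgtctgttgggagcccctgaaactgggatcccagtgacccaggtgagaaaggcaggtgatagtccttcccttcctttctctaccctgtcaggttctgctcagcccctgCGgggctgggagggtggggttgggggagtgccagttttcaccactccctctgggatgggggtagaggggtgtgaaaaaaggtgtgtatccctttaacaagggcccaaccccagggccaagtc
S100A4: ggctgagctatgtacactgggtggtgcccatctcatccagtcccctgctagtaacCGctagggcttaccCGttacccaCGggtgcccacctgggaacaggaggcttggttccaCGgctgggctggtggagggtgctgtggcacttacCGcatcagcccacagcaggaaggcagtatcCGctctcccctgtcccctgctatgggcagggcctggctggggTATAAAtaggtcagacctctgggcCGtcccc
S100P: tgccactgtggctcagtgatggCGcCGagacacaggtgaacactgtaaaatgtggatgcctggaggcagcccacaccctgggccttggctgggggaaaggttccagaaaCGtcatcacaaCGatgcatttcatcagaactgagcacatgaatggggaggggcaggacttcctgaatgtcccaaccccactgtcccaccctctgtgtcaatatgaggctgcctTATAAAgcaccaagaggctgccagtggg

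The promoters of S100A6 and S100A10 each held 24 CG in these 250 bases and that of S100A11 held 15, against a median of 11 over 35097 RefSeq promoter windows of the same length. S100A4 held 7, S100A2, S100A9, S100A14 and S100P held 4 each, S100A8 held 2 and S100A16 held 1. At the other RefSeq start of S100A16, at chr1:153609355, the window held 6. TATAAA, on either strand, was found in the windows of S100A4, S100A8, S100A9 and S100P and in 10.7% of all windows. The letters TGANTCA, searched on both strands and read the same on each apart from N, occurred in the window of S100A2 and in 6.57% of all windows. ACGTG, on either strand, occurred in none of the 10 and in 18.5% of all. A match is a description of the letters only.

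In untreated RT4 cells, the 10 S100 transcripts ran from rank 2 to rank 5707 by mean TPM among the 28252 genes listed. S100A6 (calcyclin, which binds CACYBP and annexins) had 9869 and 13570 TPM (the level per transcript length, scaled to the same total in each library) in the 2 UT libraries and held rank 2. S100A2, an epithelial member that binds p53, had 5766 and 7481 TPM, and S100A11, a partner of annexin A1, had 4574 and 6405 TPM. The UT ranges of S100A2 and S100A11 overlapped between libraries, while within each of the 6 libraries S100A2 was the higher. S100P, which binds ezrin, had 3981 and 3333 TPM and S100A9 had 1031 and 902 TPM. S100A16, a widely expressed member, followed with 430 and 463 TPM, then S100A10, the annexin A2 partner also called p11, with 333 and 414 TPM. S100A4 (metastasin, which binds the non-muscle myosin heavy chain MYH9) had 253 and 303 TPM. S100A14, an epithelial member, had 144 and 161 TPM and S100A8 only 19.6 and 22.1 TPM. Together the 10 genes took 2.64% and 3.31% of all TPM in UT cells, 2.34% and 2.71% in Ni-E cells and 2.08% and 2.84% in Ni-W cells.

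**Figure D1:**
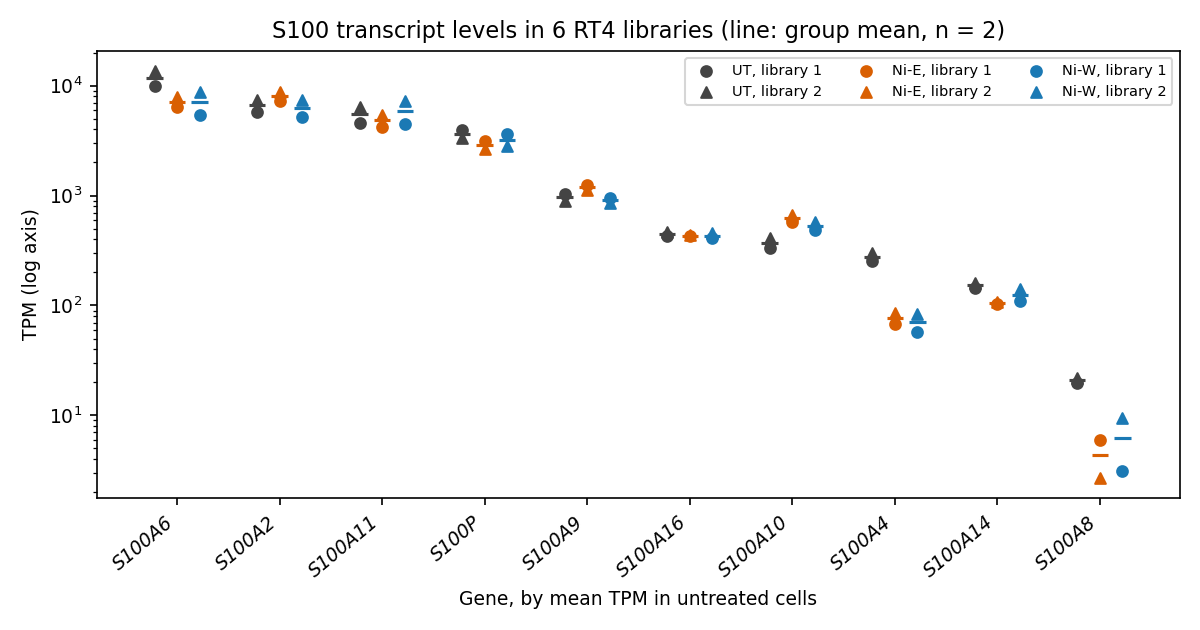
TPM of the 10 S100 genes (y, log axis) in each RT4 library, with genes ordered by their mean in UT cells (x). Points are libraries, with circles for the first and triangles for the second of each group, and lines are group means. S100A4, S100A6, S100A8 and S100A14 sit lower in the 4 nickel-treated libraries than in either UT library on this scale.

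The libraries of each group differed by their number. The second library of each group was the deeper, and total estimated counts ran from 17075833 to 27736454. S100A2, S100A4, S100A6, S100A10, S100A11, S100A14 and S100A16, 7 of the 10, were higher in the second library than in the first in all 3 groups, on the TPM scale and in CPM (counts scaled to library size, with TMM factors). The share of all genes with this pattern was not counted, so the 7 of 10 cannot be read as a trait of these genes. For S100A6 the second library was 1.24 to 1.62 times the first in TPM and 1.4 to 2.1 times in CPM. S100P and S100A9 went the other way in TPM, at 0.785 to 0.838 and 0.874 to 0.909 times. Deviations from the group means correlated between same-numbered libraries across all genes tested (Pearson's r of 0.66, 0.76 and 0.69 for the 3 pairs of groups), so values of a fit with the number as a block are given where they change a call. RT4 identity was checked by 16 urothelial markers, all of them tested. All 16 had at least 1 TPM in the UT and Ni-W libraries, and 15 had it in the Ni-E libraries. KRT7, KRT19, UPK2 and GATA3 were well expressed in every library, although UPK2 had 285 and 402 TPM in UT and 96.2 and 128 in Ni-E cells. KRT20 had 0.25 and 0.11 TPM in Ni-E cells, and KRT13 had 34.5 and 37.4 in UT and 5.36 and 5.86 in Ni-E cells. Calls over the whole list are given below.

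None of the 10 genes was called between Ni-E and UT cells by the edgeR quasi-likelihood test without the block, at 1.5-fold or more and a Benjamini-Hochberg adjusted p under 0.05, where 2.17% of 14502 genes were called. At an unadjusted p under 0.05 there were 2, S100A4 and S100A8, against 12.2% of all genes, and DESeq2 called 1, S100A4, against 4.42% of the genes it tested. With the replicate block, 4 of 10 were called against 12.6% of all genes: S100A4, S100A6 and S100A8 fell and S100A10 rose. The fitted values were lower in Ni-E cells for 7 genes and higher for 3, with a median log2 fold change of -0.30 over the 10 and of -0.012 over all genes tested. The median over the 10 was -0.099 without the second UT library, -0.20 without the first Ni-E library and -0.47 without the first UT library. The libraries of the 2 groups did not overlap in CPM for 7 of the 10, of which 2 were higher and 5 lower in Ni-E cells, against 39.6% of all genes in either direction.

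Between Ni-W and UT cells, the test without the block called none of the 10 against 0.6% of all genes, with 2 genes again at an unadjusted p under 0.05 (9.12% of all genes), and DESeq2 called S100A4 alone against 2.94%. With the block, S100A4, S100A6 and S100A8 fell, 3 of 10 against 8.57%. The median log2 fold change was -0.20 over the 10 genes and 0.0012 over all genes. The former was -0.0033 without the first Ni-W library, -0.59 without the second, -0.096 without the second UT library and -0.33 without the first. There were 3 genes whose groups did not overlap in CPM, all lower in Ni-W cells, against 29.2% of all. Between Ni-W and Ni-E cells none of the 10 was called without the block (0% of all genes), by DESeq2 (0.947%) or with the block (4.52%), and S100A9 alone, 1 of 10 against 5.57% of all genes, had an unadjusted p under 0.05 in edgeR. There, 1 gene was higher and 1 lower with no overlap in CPM, against 25.4% of all genes. Both comparisons with UT cells use the same 2 UT libraries.

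**Figure D2:**
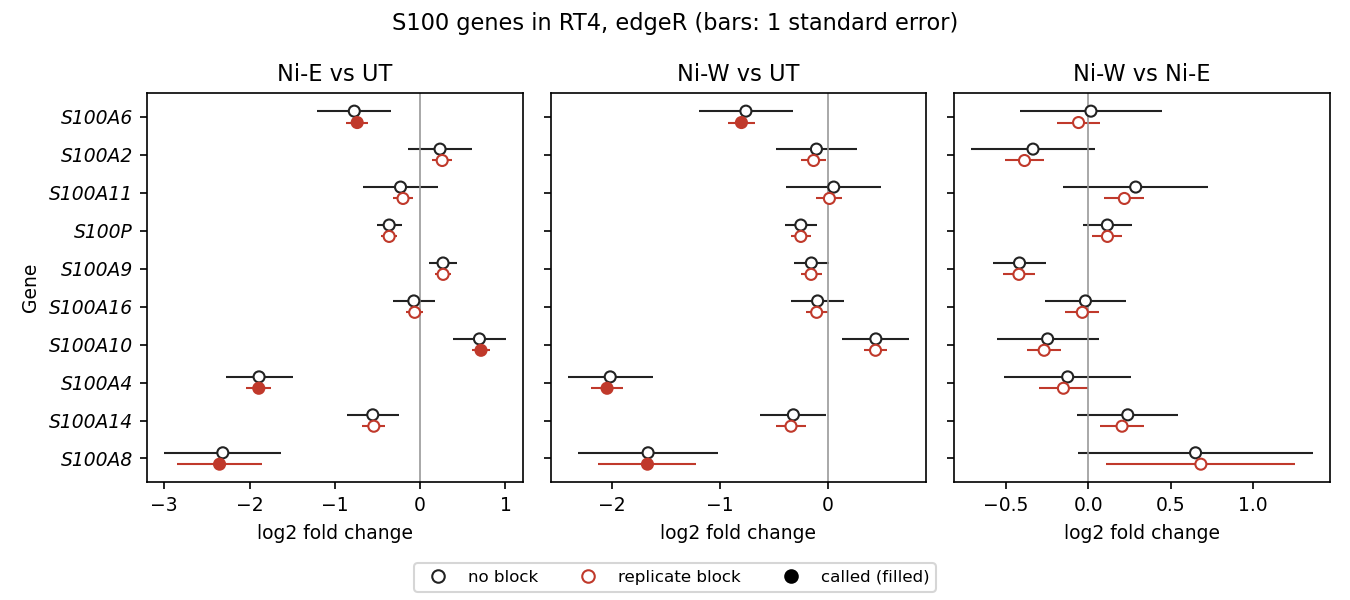
Log2 fold changes of the 10 S100 genes in RT4 cells (x) for the 3 comparisons, from edgeR without (black) and with (red) the replicate block, with bars of 1 standard error. Filled points passed the threshold. S100A4, S100A6 and S100A8 lie left of 0 in both comparisons with UT cells and are filled only with the block.

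S100A4, a protein tied to cell motility and metastasis, gave the best supported difference of the family. It had 253 and 303 TPM in UT cells, 68.0 and 85.5 TPM in Ni-E cells and 56.8 and 83.7 TPM in Ni-W cells. Every nickel-treated library was below both UT libraries, and the Ni-E and Ni-W libraries overlapped. The log2 fold change against UT cells was -1.89 ± 0.39 (SE) in Ni-E cells, 3.70-fold lower, with an adjusted p of 0.0898 in edgeR, and -2.01 ± 0.39 in Ni-W cells, 4.04-fold lower, with an adjusted p of 0.121. With the replicate block it was -1.89 ± 0.15 (edgeR adjusted p = 1.2e-05) and -2.04 ± 0.15 (adjusted p = 1.34e-05), and DESeq2 gave adjusted p of 0.000247 and 9.83e-05. Within the first libraries alone the log2 ratio to UT was -1.86 in Ni-E and -2.25 in Ni-W cells, and within the second libraries it was -1.90 and -1.87.

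S100A6 is the neighbour of S100A4 in the cluster with S100A5 between them. Its TPM was 9869 and 13570 in UT cells, 6340 and 7882 in Ni-E cells and 5440 and 8820 in Ni-W cells, so that in TPM neither nickel group reached the lower UT library. In CPM, the Ni-W libraries overlapped the UT libraries. It fell with the block by 0.74 on the log2 scale in Ni-E cells (SE 0.13, edgeR adjusted p = 0.00275) and by 0.80 in Ni-W cells (SE 0.13, adjusted p = 0.0025). Without the block the values were -0.77 ± 0.43 and -0.76 ± 0.43, with adjusted p of 0.645 and 0.821, and in Ni-E cells they became -0.35 without the second UT library, while in Ni-W cells they became -0.34 without that library, -0.31 without the first Ni-W library and -1.39 without the second. S100A6 stayed among the 7 most abundant genes of RT4 cells in all 3 groups.

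S100A5 itself, with 11.7 and 10.9 TPM in UT cells, 3.66 and 5.90 in Ni-E cells and 3.33 and 3.89 in Ni-W cells, also fell with the block, by 1.24 and 1.68 on the log2 scale (edgeR adjusted p = 0.0127 and 0.00455). Without the block its adjusted p was 0.267 and 0.205. In RefSeq the S100A5 and S100A4 genes share 65 bases on the same strand, so reads in that stretch could be counted for either, and the share of the S100A5 value that comes from S100A4 was not tested. S100A3, on the other side of S100A4, had 17.4 and 32.8 TPM in UT cells, 28.4 and 36.7 in Ni-E cells and 13.8 and 30.5 in Ni-W cells. Its groups overlapped throughout and it was called in no comparison with or without the block.

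The calprotectin genes parted. S100A9 had 1031 and 902 TPM in UT cells, 1248 and 1121 in Ni-E cells and 948 and 862 in Ni-W cells, so that Ni-E was the highest group. Its log2 fold change between Ni-W and Ni-E cells was -0.42 ± 0.16 (adjusted p = 0.854 in edgeR), and under the block -0.42 ± 0.10 with an adjusted p of 0.0316, short of 1.5-fold. S100A8 had 19.6 and 22.1 TPM in UT cells, 5.98 and 2.71 in Ni-E cells and 3.09 and 9.40 in Ni-W cells. All 4 nickel-treated libraries were below both UT libraries, on estimated counts of 6 to 36 against 44 and 85. S100A8 fell with the block by 2.35 (SE 0.49) on the log2 scale in Ni-E cells and by 1.67 (SE 0.45) in Ni-W cells (edgeR adjusted p = 0.00816 and 0.0399). Without the block the values were -2.31 ± 0.69 and -1.66 ± 0.65, with adjusted p of 0.211 and 0.523, and the value in Ni-W cells was -1.03 without the first Ni-W library and -3.03 without the second.

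The TPM of S100A9 was 52.5 and 40.8 times that of S100A8 in the UT libraries, 209 and 414 times in the Ni-E libraries and 307 and 91.7 times in the Ni-W libraries. This ratio was higher in every nickel-treated library than in either UT library, and it rests on the low counts of S100A8. Neutrophils and monocytes are the best known source of these transcripts. Of 11 myeloid markers, TYROBP, AIF1, MPO and ELANE were listed at 0 in all 6 libraries and PTPRC did not exceed 0.04 TPM. The 11 markers summed to 13.6 and 11.7 TPM in UT cells, 19.9 and 16.2 in Ni-E cells and 24.2 and 22.2 in Ni-W cells, led by CD68 with 7.3 to 13.4 TPM and ITGAM with 3.71 to 9.77 TPM. Of the markers tested, none of 4 was called without the block, while with it CD68 rose and CSF3R fell in Ni-E cells, CD68 and ITGAM rose in Ni-W cells against UT and ITGAM rose in Ni-W against Ni-E cells (12.6%, 8.57% and 4.52% of all genes). The part of myeloid transcripts in the S100A8 and S100A9 values was not tested.

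S100A10 was the member that rose with the block. It had 333 and 414 TPM in UT cells, 576 and 665 in Ni-E cells and 484 and 573 in Ni-W cells, so that no nickel-treated library overlapped the UT libraries in TPM. In CPM the Ni-W and UT libraries overlapped. Its log2 fold change in Ni-E cells was 0.71 ± 0.10 with the block (edgeR adjusted p = 0.000856). Without the block it was 0.70 ± 0.31 (adjusted p = 0.483), and it ran from 0.43 to 1.02 with 1 library left out. In Ni-W cells it was 0.44 ± 0.10 with the block, under 1.5-fold at an adjusted p of 0.0188. Without the block the value in Ni-W cells was 0.45 ± 0.31, and it became 0.10 without the second Ni-W library, 0.18 without the first UT library, 0.74 without the first Ni-W library and 0.77 without the second UT library. Annexin A2 (gene ANXA2), the partner of S100A10, had 1575 and 1673 TPM in UT cells, 1680 and 1754 in Ni-E cells and 2203 and 2397 in Ni-W cells. The TPM of ANXA2 was 4.73 and 4.04 times that of S100A10 in UT cells, 2.92 and 2.64 times in Ni-E cells and 4.55 and 4.18 times in Ni-W cells.

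The other abundant members were called in no comparison by either fit. S100A2 had 5766 and 7481 TPM in UT cells, 7266 and 8680 in Ni-E cells and 5237 and 7408 in Ni-W cells, with overlap throughout in CPM. S100A2 had the highest mean TPM of the family in Ni-E cells, 7973 ± 1000 (SD, n = 2), where S100A6 had 7111 ± 1090, and S100A2 was above S100A6 in both Ni-E libraries. S100A11 had 4191 and 5450 TPM in Ni-E cells and 4483 and 7222 in Ni-W cells, around its UT values, and S100A16 stayed between 410 and 463 TPM in all 6 libraries. Within same-numbered libraries, S100A2 was higher in Ni-E than in UT cells (log2 ratios of 0.37 and 0.14). It was lower in Ni-W than in Ni-E cells (-0.62 and -0.15) and than in UT cells (-0.25 and -0.014). S100A11 was lower in Ni-E than in UT cells (-0.097 and -0.31) and S100A16 lower in Ni-W than in UT cells (-0.18 and -0.029). In their other comparisons the signs differed between the numbers. Without the block, 2 libraries per group left wide errors (SE of 0.44 for S100A11 and 0.24 for S100A16 on the log2 scale).

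S100P and S100A14 were lower in both Ni-E libraries without reaching 1.5-fold and the adjusted p together. S100P had 3981 and 3333 TPM in UT cells, 3161 and 2648 in Ni-E cells and 3621 and 2844 in Ni-W cells. Its log2 fold change in Ni-E cells was -0.36 ± 0.15 without the block (edgeR adjusted p = 0.409) and -0.36 ± 0.09 with it (adjusted p = 0.0196), 1.29-fold lower. S100A14 had 144 and 161 TPM in UT cells, 103 and 108 in Ni-E cells and 109 and 142 in Ni-W cells. Its log2 fold change in Ni-E cells was -0.56 ± 0.31 without the block (adjusted p = 0.637) and -0.54 ± 0.14 with it (adjusted p = 0.019), and without the block it was -0.32 when the second UT library was left out.

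The rest of the family was sparse in RT4 cells. Of 12 further genes, counting S100PBP, a binding protein of S100P that is not itself an S100 protein, 11 were listed and 5 were tested. None was called in the 3 comparisons without the block, against 2.17%, 0.6% and 0% of all genes. With the block 1 of 5, S100A5, fell in Ni-E and in Ni-W cells against UT, where 12.6% and 8.57% of all genes were called. None was called between Ni-W and Ni-E cells with the block (4.52% of all genes). S100A13 led them with 288 and 299 TPM in UT cells, 278 and 288 in Ni-E cells and 271 and 312 in Ni-W cells. S100A7 and S100A7A, psoriasis-associated members of the skin, were listed at 0 in all 6 libraries. The 7 S100 fused-type genes, such as FLG (filaggrin) and HRNR (hornerin), which build the cornified layer of skin, did not exceed 0.03 TPM and none was tested.

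Of 15 partners and receptors, 13 had at least 1 TPM in each of the 6 libraries. AGER, which encodes the receptor RAGE, was listed at 0 in all 6 libraries, while TLR4 had 4.89 to 12.9 TPM. From these 15, 14 were tested and none was called in the 3 comparisons without the block, against 2.17%, 0.6% and 0% of all genes. With it 1 of 14 was called in Ni-E and 3 of 14 in Ni-W against UT and 1 of 14 in Ni-W against Ni-E cells, where 12.6%, 8.57% and 4.52% of all genes were. With the block AHNAK, a giant scaffold bound by S100A10 and annexin A2, rose in Ni-E cells (log2 fold change 0.91 ± 0.12, edgeR adjusted p = 0.000402). AHNAK, ANXA1 and ANXA6 rose in Ni-W cells against UT with the block, and ALCAM fell in Ni-W against Ni-E cells. ANXA1, the partner of S100A11, had 136 and 168 TPM in UT cells, 206 and 249 in Ni-E cells and 217 and 259 in Ni-W cells, with no overlap in TPM between UT and either nickel group, while in CPM the Ni-W and UT libraries overlapped. ANXA6 did not exceed 0.86 TPM in any library, on estimated counts of 5 and 1 in UT and 20 and 38 in Ni-W cells. MYH9, the partner of S100A4, had 347 and 275 TPM in UT cells, 399 and 309 in Ni-E cells and 451 and 312 in Ni-W cells, and was called in no comparison by either fit.

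Among 18 listed neighbours in the epidermal differentiation complex, the stretch of chromosome 1 that also holds the S100 cluster, 4 were tested. Without the block 1 of the 4, involucrin (IVL), a precursor of the cornified envelope, was called in Ni-E against UT cells, where 2.17% of all genes were. None was called in Ni-W against UT or against Ni-E cells without the block (0.6% and 0% of all genes). IVL had 114 and 112 TPM in UT cells, 50.9 and 48.5 in Ni-E cells and 82.8 and 78.5 in Ni-W cells. IVL fell by 1.20 on the log2 scale in Ni-E cells (SE 0.19, edgeR adjusted p = 0.0458), and its Ni-W libraries lay between the other groups. SPRR3, another envelope precursor, had 16.2 and 24.4 TPM in UT cells, 6.54 and 9.71 in Ni-E cells and 17.9 and 18.7 in Ni-W cells, and fell in Ni-E cells with the block (log2 fold change -1.34 ± 0.20, adjusted p = 0.000926). With the block 2 of the 4 tested fell in Ni-E against UT cells, against 12.6% of all genes, and none was called in Ni-W against UT cells (8.57%). With the block IVL, SPRR1A and SPRR3 rose from Ni-E to Ni-W cells, 3 of the 4 tested, against 4.52% of all genes.

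Of 16 urothelial markers, 3 fell in Ni-E cells against UT without the block (KRT13, KRT20 and UPK1A) and 2 in Ni-W cells (KRT13 and KRT20), against 2.17% and 0.6% of all genes, and the other 13 and 14 were not called. With the block 7 fell in Ni-E and 3 in Ni-W cells against UT, and 6 rose from Ni-E to Ni-W cells, against 12.6%, 8.57% and 4.52% of all genes. KRT20, a keratin of the superficial umbrella cells, had 11.1 and 11.3 TPM in UT cells, 0.25 and 0.11 in Ni-E cells and 1.59 and 1.37 in Ni-W cells. The summed level of the 16 markers, in which KRT7 and KRT19 led, was 13897 and 15190 TPM in UT cells, 14627 and 14915 in Ni-E cells and 14502 and 17546 in Ni-W cells. The 9 fibroblast and mesenchymal markers summed to between 1.17 and 5.51 TPM, with VIM (vimentin) at no more than 0.31 TPM and COL1A2 and DCN listed at 0 in all libraries. COL3A1 led this list in the nickel-treated libraries. It was 1 of 2 tested, and neither was called by edgeR without the block. COL3A1 rose with the block in Ni-E and Ni-W cells against UT, where 12.6% and 8.57% of all genes were called. DESeq2 also called it higher in Ni-E cells (log2 fold change 2.56, adjusted p = 0.00152), against 4.42% of the genes it tested. In bulk RNA, fewer cells of a type and less RNA per cell cannot be told apart, and the part of cell state in the S100 values was not tested.

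In BEAS-2B cells, 4 of the 10 S100 promoters had H3K4me3 above the library median and 6 had it below. S100A10, S100A11, S100A16 and S100A6 had H3K4me3 levels of 8.24, 7.12, 7.11 and 6.37 RPKM (reads scaled to window length and library depth) in UT cells, each above 74.7% or more of all promoters, over the 4 kb around the TSS. S100A2 and S100A4 had 0.969 and 0.854 RPKM, under the library median of 1.57. S100A8, S100A14, S100A9 and S100P had 0.379, 0.343, 0.229 and 0.211 RPKM, on 43, 39, 26 and 24 reads, where 3 reads, the floor, correspond to 0.0264 RPKM. With 1 library per condition, the 95% Wilson intervals cover counting error only, and no test of the condition was possible.

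The same 4 promoters were above the median of each of the 3 libraries. They ran from 6.29 to 8.43 RPKM in Ni-E cells and from 3.51 to 5.22 RPKM in Ni-W cells, and the other 6 never exceeded 1.03 RPKM. Of these 4 genes, S100A6, S100A10 and S100A11 had the 3 most CG-rich windows of the 10, and S100A16 the poorest at the start shown, though not at its other RefSeq start. Which start the RPKM refers to is not given in the sources used here. The same holds for S100A2, with 2 RefSeq starts, and for S100A8, with 3. The windows of S100A16 and S100A14, whose starts are 3188 bases apart, share 812 bases if these RefSeq starts are the ones the authors used, and their levels still differed, at 7.11 and 0.343 RPKM. Those of S100A4 and S100A3 share 548 bases.

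Between Ni-E and UT cells, the chromatin dynamic score, the difference of the square roots of RPKM over the library median, was past counting error and positive for 3 promoters and negative for none, with 32.8% of all promoters past it in either direction. S100A6 had 6.85 RPKM (95% interval 6.44 to 7.28) in Ni-E and 6.37 (5.92 to 6.85) in UT cells, a score of 0.207. S100A10 had 8.43 (7.98 to 8.91) and 8.24 (7.72 to 8.78), a score of 0.173, and S100A9 had 0.36 (0.276 to 0.47) and 0.229 (0.156 to 0.336), a score of 0.127, against a counting range of ± 0.1 for each. The RPKM intervals of each of these genes overlapped, and without median scaling no score was past counting error upward and that of S100A16, at 7.11 in UT and 6.29 in Ni-E cells, was past it downward. S100A6 alone stayed past it upward with quantile normalization, where S100P was past it downward at -0.112, and S100A6 and S100A9 stayed past it with the median over promoters of at least 1 RPKM, so that S100A10 was within it under all 3 of these. All promoters split into 29.1% higher and 3.74% lower, against 7.09% and 17.4% without scaling, 10.1% and 10.4% with quantile normalization and 11.3% and 10.3% with the median over promoters of at least 1 RPKM. The median score was 0.0561 over the 10 and 0.0528 over all promoters. Over S100A6, S100A10, S100A11 and S100A16 it was 0.119. Over the 3743 promoters whose Ni-W level lay within the range of these 4 it was 0.0945 (quartiles 0.0331 and 0.150).

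In Ni-W cells the mark was lower in RPKM at these 4 promoters, with intervals that did not overlap those of UT cells, although for S100A10, S100A11 and S100A16 the difference turned positive with quantile normalization or with the median over promoters of at least 1 RPKM. S100A6 had 3.51 RPKM (3.19 to 3.86), 0.551 times its UT level, and S100A16 had 4.46 (4.1 to 4.85) against 7.11 (6.63 to 7.62). S100A10 had 5.22 (4.83 to 5.65) and S100A11 had 5.1 (4.71 to 5.52), at 0.634 and 0.716 times their UT levels. The whole library was lower too, with a median of 1.12 RPKM in Ni-W, 1.39 in Ni-E and 1.57 in UT cells, so that the Ni-W median was 0.714 times that of UT. Among the 2973 promoters whose Ni-E level lay within the range of these 4, the median ratio of Ni-W to UT was 0.555.

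After median scaling, S100A4, S100A6, S100A10 and S100A16 scored lower in Ni-W than in UT cells past counting error, 4 of 10 against 56.1% of all promoters in either direction. Among all promoters 19.9% scored higher and 36.3% lower. The scores of S100A4, S100A6, S100A10 and S100A16 were -0.127, -0.245, -0.132 and -0.133, against a counting range of ± 0.112. That of S100A11, within it, was 0.0035. The 2973 promoters whose Ni-E level lay within the range of S100A6, S100A10, S100A11 and S100A16 had a median score of -0.258 (quartiles -0.370 and -0.0824). S100A11 was past counting error upward with quantile normalization (0.212) and with the median over promoters of at least 1 RPKM (0.124), and downward without scaling (-0.41). S100A2, within it here, was past it downward with quantile normalization (-0.142) and without scaling (-0.231). The direction of S100A10 and S100A16 turned with quantile normalization, to 0.078 and 0.0722, and with the median over promoters of at least 1 RPKM, to 0.0568 and 0.0471. With quantile normalization 21.5% of all promoters scored higher and 26.1% lower. With the median over promoters of at least 1 RPKM 35.6% of all promoters scored higher and 16.8% lower, and without median scaling 7.83% and 56.2%. S100A6 and S100A4 were lower in Ni-W cells under all 5 settings, of which the log2 ratio of (RPKM + 1) kept the median scaling of the main score. Both were within counting error with the median over promoters of at least 1 RPKM, and S100A6 with quantile normalization as well.

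Between Ni-W and Ni-E cells 5 of the 10 scored lower past counting error and none higher, against 59.0% of all promoters in either direction: S100A2, S100A4, S100A6, S100A10 and S100A16. S100A6 had the largest difference of the 10 after median scaling, with 6.85 RPKM in Ni-E and 3.51 in Ni-W cells, a score of -0.451. The 2645 promoters whose UT level lay within the range of S100A6, S100A10, S100A11 and S100A16 had a median score of -0.331 (quartiles -0.454 and -0.160). S100A6 was lower past counting error under all 5 settings, of which the log2 ratio of (RPKM + 1) kept the median scaling. S100A10 and S100A16 changed direction under the same alternatives as above, and S100A2 and S100A4 stayed lower but within counting error with the median over promoters of at least 1 RPKM. All promoters split into 14.8% higher and 44.3% lower with the main scaling, 22.7% and 26.5% with quantile normalization, 34.5% and 16.8% with the median over promoters of at least 1 RPKM and 8.29% and 57.9% without scaling. S100A2 had 1.03 RPKM (0.883 to 1.21) in Ni-E and 0.568 (0.448 to 0.72) in Ni-W cells, and S100A4 had 0.76 (0.633 to 0.913) and 0.418 (0.317 to 0.55), with no overlap of the intervals for either. S100A8, S100A9, S100A11, S100A14 and S100P were within counting error after median scaling. S100A11 and S100A16 were past it upward with quantile normalization (0.236 and 0.161) and with the median over promoters of at least 1 RPKM (0.136 and 0.0906), and S100A8 was past it upward with the latter (0.0638). Without scaling S100A11 and S100A14 were past it downward, at -0.329 and -0.131.

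**Figure D3:**
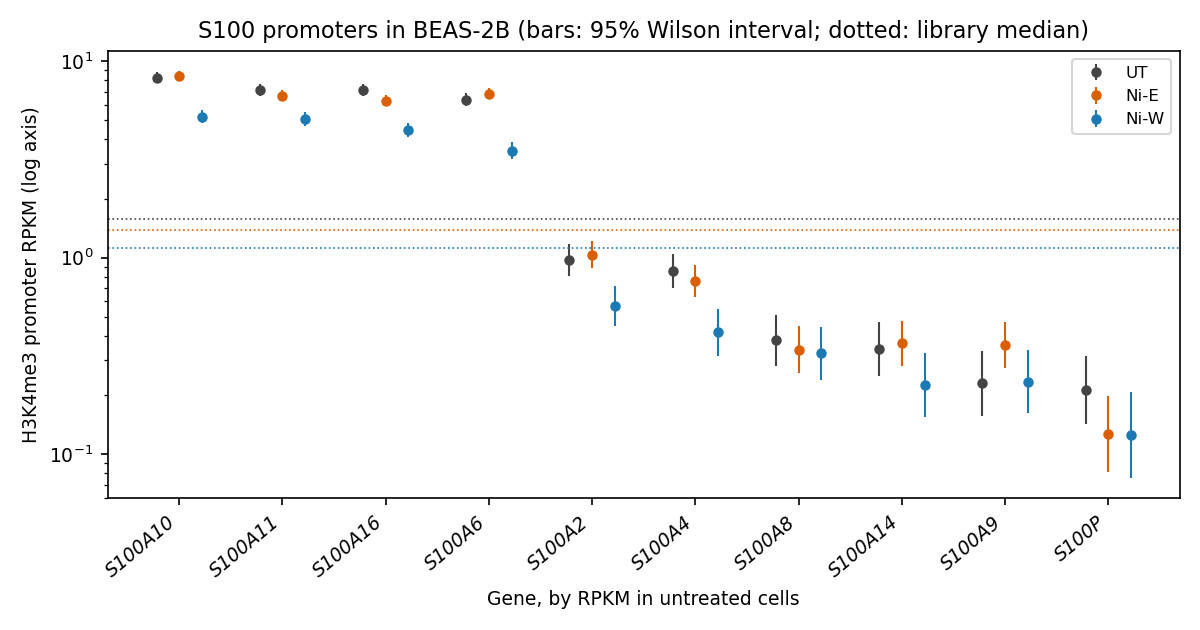
H3K4me3 RPKM over the 4 kb promoter window (y, log axis) of the 10 S100 genes (x) in the 3 BEAS-2B libraries, with 95% Wilson intervals of the reads as bars and the library medians as dotted lines. S100A10, S100A11, S100A16 and S100A6 lie above all 3 medians and the other 6 below, and the Ni-W points of the upper 4 are the lowest of each gene, an order that turned for S100A10, S100A11 and S100A16 with quantile normalization.

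Set side by side, the RNA of one line and the mark of the other matched for some members and parted for others. S100A6 and S100A11 had at least 4191 TPM in every RT4 library and promoters above the library median in BEAS-2B cells. S100P had a mean of 3657 TPM in UT RT4 cells and 0.211 RPKM in UT BEAS-2B cells, and S100A9 had 966 TPM and 0.229 RPKM. S100A2 had 6624 TPM and 0.969 RPKM, though it has 2 RefSeq starts and the one behind the RPKM is not given. Of the other family members, S100A13 had 293 TPM and 8.14 RPKM, and S100A1 had 1.14 TPM and 3.73 RPKM, though the RefSeq starts taken for it and S100A13 are 929 bases apart, and their windows would share 3071 bases if the authors used these starts. The line and the assay differ at once, so these pairs of values are a description.

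**Figure D4:**
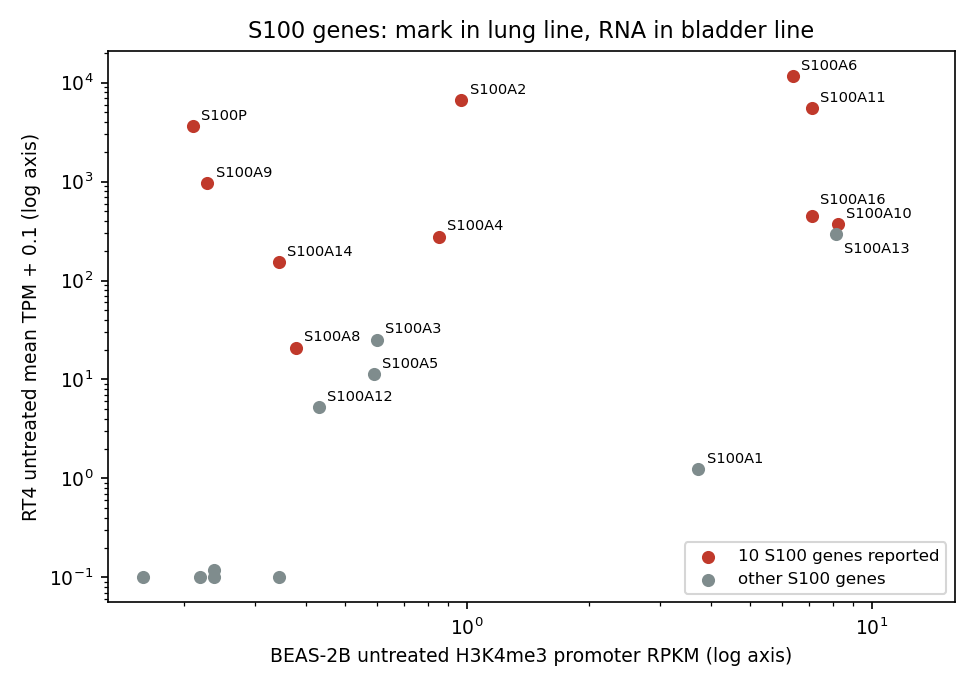
Mean TPM in UT RT4 cells plus 0.1 (y, log axis, n = 2) against H3K4me3 promoter RPKM in the UT BEAS-2B library (x, log axis), 1 point per S100 gene listed in both, with the 10 genes described in red. S100P and S100A9 lie at the upper left, with abundant RNA in RT4 cells and little mark in BEAS-2B cells.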

How the data were processed

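The 10 genes and all other lists were chosen with earlier results of these data known. For each RT4 library the authors deposited a table of 28252 genes from RSEM, with the estimated count, the TPM and the FPKM of each. The methods describe STAR alignment to hg19 for the RNA-Seq, while the submitters' processing notes name hg38, and the build behind these values is not given in the sources used here. For BEAS-2B cells the authors deposited promoter RPKM of H3K4me3 after BWA alignment to hg38, with 1 copy of redundant reads kept, no peak calling and 2 kb taken on each side of the TSS. FPKM values as deposited were not used.

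Estimated counts were rounded (96.6% of those above 0 were whole) and tested in edgeR 4.0.16 (R 4.3.3) with TMM factors, the expression filter by group, 1 model of the 3 groups and the quasi-likelihood test. Calls needed 1.5-fold and a Benjamini-Hochberg adjusted p under 0.05 over all 14502 genes tested. All 10 genes passed the filter. Overlap was read from TMM-scaled CPM unless TPM is named. The methods name biological replicates, and p-values measure the spread between these libraries only. Same-numbered libraries (titles without and with a duplicate suffix) deviated together (r of 0.66, 0.76 and 0.69), so the numbers were taken to pair the libraries, from the data rather than from the labels. On simulated counts for Ni-E against UT cells with 2 libraries per group, 145 of 200 genes changed 4-fold were recovered among 14502, with 10 called wrongly.

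Within a library every RPKM was a multiple of what 1 read is worth, which gave depths of 28385725, 37493949 and 29933551 reads for UT, Ni-E and Ni-W and the reads behind each value. Intervals are 95% Wilson intervals and the floor is 3 reads. Reads carry no molecular identifiers. Counting ranges of scores are 95% ranges from these reads. Genes named were the 10 in every comparison, the genes of the other lists called in at least 1 RT4 comparison, and, chosen after their values were seen, those called only with the block, family neighbours and partners given as values. Since none of the 10 was called without the block, no genes of similar pattern were named. Alternatives were DESeq2 1.42.0, RLE size factors, no filter or at least 10 counts in every library, the block, only the 2 groups compared, limma 3.58.1 on log2(TPM + 1) or log2(TPM + 0.1) at a mean TPM of at least 1, each library left out, and, for scores, unscaled values, quantiles made equal between libraries, log2 of (RPKM + 1) as a ratio and medians over promoters of at least 1 RPKM.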

Additional observations from a re-analysis of the deposited data

How the results depend on the processing

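The number of the 10 S100 genes called in RT4 cells, 0 in each comparison, depended on the fit. For Ni-E against UT it was 4 with the replicate block and 1 with DESeq2, with no filter on low counts and with only the 2 groups compared, and leaving out each library gave 0 to 1, with S100A4 called without Ni-W replicate 1 or Ni-W replicate 2. For Ni-W against UT it was 3 with the block and 1 with DESeq2 or no filter. For Ni-W against Ni-E it stayed 0. In each setting with 1 call the gene was S100A4. S100A8 was not tested under the filter of 10 counts in every library. With the block the calls over all genes rose from 314, 87 and 0 to 1833, 1243 and 655. DESeq2 gave 730, 442 and 139. Without the filter there were 449, 193 and 14, with 10 counts in every library 209, 54 and 0, with only the 2 groups 354, 0 and 0, and with limma on log2(TPM + 1) 177, 77 and 0, or 185, 86 and 8 with log2(TPM + 0.1). With a library left out, calls ranged from 0 to 320 for Ni-E against UT and from 0 to 38 for Ni-W against UT.

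The log2 fold change of S100A6 in Ni-W against Ni-E, close to 0, turned to -0.060 with the block and -0.029 with limma under either pseudocount. Directions that turned when a library was left out all belonged to uncalled values, with these ranges. For Ni-E against UT they were -0.053 to 0.59 (S100A2), -0.56 to 0.20 (S100A11) and -0.25 to 0.12 (S100A16). For Ni-W against UT they were -0.62 to 0.28 (S100A2), -0.57 to 0.50 (S100A11), -0.75 to 0.020 (S100A14) and -0.38 to 0.15 (S100A16). For Ni-W against Ni-E they were -0.85 to 0.054 (S100A2), -0.67 to 0.27 (S100A4), -0.62 to 0.47 (S100A6), -0.71 to 1.29 (S100A8), -0.60 to 0.045 (S100A10), -0.34 to 0.74 (S100A11), -0.19 to 0.58 (S100A14) and -0.30 to 0.23 (S100A16). S100A4 against UT stayed between -2.16 and -1.59 in Ni-E cells and between -2.56 and -1.62 in Ni-W cells. S100A14 in Ni-E cells ranged from -0.75 to -0.32, S100A6 ranged from -1.10 to -0.35 and from -1.39 to -0.31, S100A8 from -2.82 to -1.88 and from -3.03 to -1.03, and S100A10 from 0.43 to 1.02 and from 0.10 to 0.77. Where a library was left out, the lone library of its group was assumed to vary like the others.

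Promoters past counting error in Ni-E against UT went from 3 higher to 1 lower (S100A16) without median scaling, to 1 higher and 1 lower (S100A6 and S100P) with quantile normalization and to 2 higher (S100A6 and S100A9) with the median over promoters of at least 1 RPKM. In Ni-W against UT the 4, all lower, became 6 lower without scaling, 2 lower (S100A2 and S100A4) and 1 higher (S100A11) with quantile normalization and, with the median over promoters of at least 1 RPKM, 2 higher (S100A9 and S100A11), none of the 4 staying past counting error. The scores of S100A10 and S100A16 turned in Ni-W against UT with quantile normalization (0.078 and 0.0722) and with that median (0.0568 and 0.0471), and in Ni-W against Ni-E (0.00534 and 0.161, then 0.020 and 0.0906). The Ni-W library's lower median is a level of 1 library, and its cause was not tested.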
